A study of Mus musculus with 6 samples.

Results

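The variable part of the T cell receptor alpha chain was examined in regulatory T cells (Treg) through the Trav gene segments, taken as every gene of the deposited count table whose symbol begins with Trav. There were 111 such members among 29199 genes of the table. The share of each was taken among all Trav counts of its library, and members whose names differ only by a d or n after the family number were also summed, which gave 64 segments in 23 families. The Treg had been sorted from the spleen by the markers CD4, CD45.2, Thy1.1 and H-2Kb, without CD45.1 and H-2Kd, 3 weeks after a bone marrow graft. All 6 libraries held wild-type (WT) Treg that came from B6 Foxp3-Thy1.1 mice and had been expanded in culture with beads against CD3 and CD28, IL-2 and TGF-β. All hosts were lethally irradiated B6 mice given these Treg, naive CD4+ conventional T cells (Tconv) and marrow of B6 and of semi-allogeneic B6D2F1 donors. The Tconv were WT in 3 libraries (Treg with WT Tconv) and lacked HP1α, a heterochromatin protein, in the other 3 (Treg with HP1α KO Tconv). HP1α had been deleted through CMV-cre in the whole animal, on a mixed 129/Sv and C57BL/6 background, so that the neighbouring Tconv, not the Treg, set the 2 groups apart. Nothing in the labels says whether replicates came from separate hosts, so p-values measure only the spread between these libraries, which may be technical.

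In developing alpha-beta T cells, a Trav segment is joined to a Traj segment by V(D)J recombination, and the joined exon is spliced to the constant exons of Trac. The cut is directed by a recombination signal next to the V exon, made of a conserved heptamer, a spacer and a nonamer. Segments near the J cluster tend to be used in the first rearrangements and distal ones in later rounds. In the C57BL/6 genome the middle of the locus has been copied, so that many segments exist in up to 3 versions, 1 without a letter and others with d or n in the name. In sorted polyclonal cells, the share of a segment therefore reflects both how often it was rearranged and how much the clones that carry it have grown. In bulk RNA, more cells with a segment and more receptor RNA per cell cannot be told apart.

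The signals are shown first because they are what recombination reads. Each is the stretch of 39 bases that follows the V exon on the plus strand of chromosome 14 (GRCm39), with the heptamer (first 7 bases) and the nonamer (last 9 bases) in capitals. Trav7-4, Trav14-3 and Trav4-4-dv10 were among the most used, Trav10 and Trav5-4 carry another heptamer and were well used, Trav11 had a mean share of 0.449%, and Trav18 and Trav22 were rare.
Trav7-4, chr14:53699196-53699234: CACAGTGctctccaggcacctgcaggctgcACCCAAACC
Trav14-3, chr14:54001152-54001190: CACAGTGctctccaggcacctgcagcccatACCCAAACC
Trav4-4-dv10, chr14:53921635-53921673: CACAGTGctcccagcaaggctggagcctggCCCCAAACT
Trav10, chr14:53743744-53743782: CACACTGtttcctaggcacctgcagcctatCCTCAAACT
Trav5-4, chr14:53941972-53942010: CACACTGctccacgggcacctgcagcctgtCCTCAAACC
Trav11, chr14:53757317-53757355: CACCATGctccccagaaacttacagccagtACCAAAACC
Trav18, chr14:54069285-54069323: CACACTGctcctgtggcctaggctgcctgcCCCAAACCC
Trav22, chr14:54165053-54165091: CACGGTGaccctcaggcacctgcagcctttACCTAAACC

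The heptamer CACAGTG, searched on the strand of the segment within the first 9 bases after the V exon, was found in 102 of 130 annotated segments (78.5%) and in 91 of the 111 members. The 91 members held 89.0% of Trav counts on average over the libraries, with a median share of 0.721% per member, and the other 20 members held 11.0% with a median of 0.301%. Most of that 11.0% came from Trav10, Trav5-4, Trav8-1 and Trav21-dv12, whose members without a letter had mean shares of 2.62%, 1.70%, 1.57% and 1.02%. Among the rare members without CACAGTG were the pseudogenes Trav22 (0.00203%), Trav12-4 (0.00712%) and Trav15d-3 (0.00922%). Trav18 has the same heptamer as Trav10 and was annotated as a V gene, not a pseudogene, yet its mean share was 0.0112%. The letters of the heptamer alone did not order the segments by use.

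Trav transcripts were a small and similar fraction of every library. Library totals ranged from 87421755 to 119078882 counts. Trav counts were 40171, 41823 and 41750 in replicates 1, 2 and 3 of Treg with WT Tconv, and 38708, 40005 and 39248 in those of Treg with HP1α KO Tconv. At this depth the 95% Wilson interval of a segment's share was at most ±0.239 percentage points, and 0 counts allow a share of up to 0.00775% (3 counts of the smallest Trav total). Intervals and floors cover counting error only. All 111 members had at least 1 count somewhere, and 90 to 97 had 10 or more in a given library. Members annotated as V genes dominated, since the 11 members annotated as pseudogenes held 0.764% of Trav counts.

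The total Trav level was 397 ± 40.6 CPM (SD, n = 3; CPM is the count per 1e6 counts of the library) in Treg with WT Tconv, and 429 ± 18.9 CPM in those with HP1α KO Tconv. Per library it was 417, 424 and 351 CPM with WT Tconv and 426, 412 and 449 CPM with HP1α KO Tconv. The groups overlapped, and the difference of 31.6 CPM was 21.0 CPM with TMM-scaled totals and 19.9 CPM with DESeq2 size factors. Replicate 3 with WT Tconv was the lowest, and the difference with plain totals was 8.3 CPM without that library. The same library had the highest level of 5 red cell genes, 5341 CPM against 365 to 678 CPM in the other libraries, and of 6 neutrophil genes, 1535 CPM against 36.0 to 196 CPM. The part of these cells in the Trav level was not tested. Trac, the constant region of the alpha chain, had 848 ± 64.4 CPM after TMM scaling with WT Tconv and 888 ± 76.3 CPM with HP1α KO Tconv (log2 fold change 0.07, SE 0.09, adjusted p = 0.768, edgeR). Of the other genes of the receptor and its assembly, Trbc1, Trbc2, Cd3d, Cd3e, Cd3g, Cd247 (subunits of the receptor complex), Cd4 and Rag1 (a subunit of the V(D)J recombinase) were tested and 0 of them passed, with adjusted p-values from 0.488 for Rag1 to 0.976 for Cd4. Rag1 was low, at 5.67 to 7.57 CPM over the libraries, and Rag2 (its partner) and Dntt (which adds bases at the joints) did not reach the filter. Foxp3, the defining Treg factor, was at 158 to 254 CPM in all libraries. The 4 Treg genes Foxp3, Il2ra, Ctla4 and Ikzf2 summed to 3065 to 3564 CPM with WT Tconv and 2744 to 3201 CPM with HP1α KO Tconv, and the groups overlapped. Ctla4, an inhibitory receptor, did not overlap, at 1243, 1322 and 1093 CPM against 1029, 1047 and 806 CPM, whereas Foxp3, Il2ra and Ikzf2 each overlapped. Among all genes tested, 23% did not overlap on the TMM CPM scale. The part of these levels in the Trav results was not tested. Of the CD8 genes, Cd8b1 was at 5.70 to 8.52 CPM and Cd8a at 0.0617 to 0.487 CPM. Trdc, the constant region of the delta chain, was at 6.13 CPM in replicate 3 with WT Tconv and 1.46 to 2.22 CPM elsewhere. The other genes listed for gamma-delta T cells were Trgc1 (1.63 to 3.23 CPM), Trgc2 (1.34 to 2.56 CPM), Trgc4 (1.49 to 4.15 CPM) and Sox13 (0 to 0.328 CPM).

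Treg used a broad set of segments with no dominant one. The 10 most used segments after summing copies held 40.6% of Trav counts, 14 segments together held at least 50%, 35 had a mean share of at least 1% and 11 a mean share under 0.1%. Trav7-4 was the most used at a mean of 5.44%, and the next were Trav14-3 (4.29%), Trav14-2 (4.27%), Trav4-4-dv10 (4.20%), Trav9-1 (4.03%), Trav10 (3.89%), Trav6-6 (3.84%), Trav9-4 (3.74%), Trav14-1 (3.44%) and Trav16 (3.40%). This order keeps names with the -dv suffix apart from their copies. Trav4-4-dv10 and Trav4-4 (2.76%) together held more than Trav7-4 in every library. On average, so did Trav14-3 with Trav14-3-dv8 (1.62%). When counts were divided by exonic length, 9 of these 10 were again among the 10 most used.

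**Figure D1:**
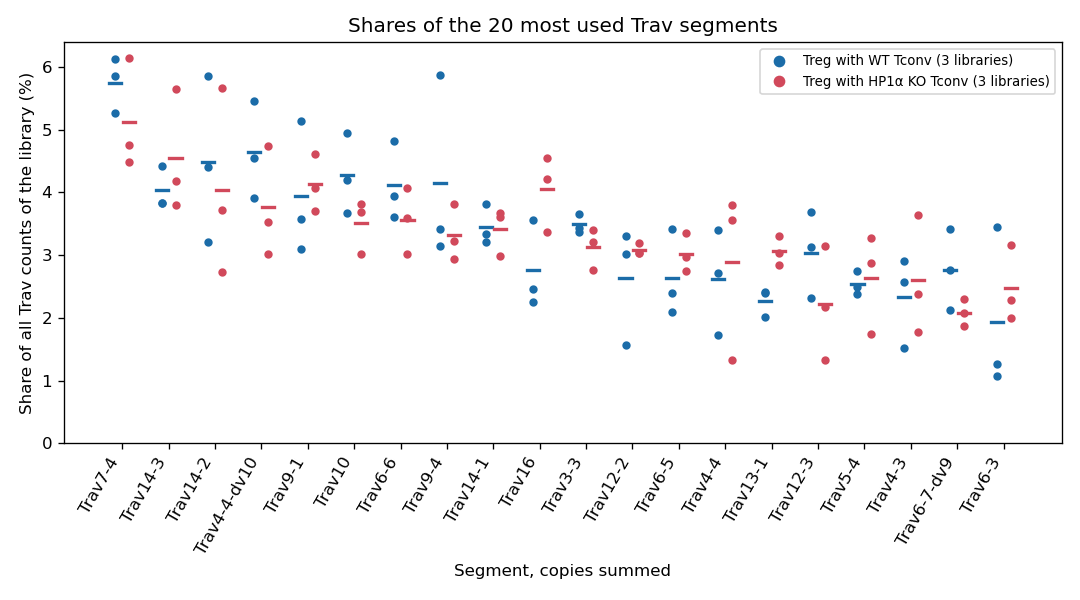
Share of all Trav counts of a library (%, y axis) for the 20 most used segments with copies summed (x axis). Points are libraries, short lines are the means of 3 libraries, and the groups overlap for all of these segments except Trav13-1. Among all genes tested, 23% did not overlap on the TMM CPM scale.

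Among the leading segments, libraries of the same group differed as much as the groups did. Trav7-4 took 5.27%, 6.13% and 5.86% of Trav counts with WT Tconv, and 6.14%, 4.76% and 4.49% with HP1α KO Tconv. With -dv names kept apart, it was the most used segment in replicates 1 and 2 with WT Tconv and in replicate 1 with HP1α KO Tconv. Trav14-2 took 3.21%, 4.41% and 5.86% with WT Tconv and 3.73%, 5.67% and 2.74% with HP1α KO Tconv, so that its range within each group exceeded the difference of the means. Trav10 took 4.94%, 4.20% and 3.68% with WT Tconv and 3.82%, 3.02% and 3.69% with HP1α KO Tconv. Trav16 took 2.46%, 3.56% and 2.25% with WT Tconv and 4.21%, 3.37% and 4.56% with HP1α KO Tconv. Its WT replicate 2 lay above its KO replicate 2, so these groups also overlapped. The neighbours Trav14-3, Trav14-2, Trav4-4-dv10 and Trav9-1 were not separated beyond this spread.

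By family, Trav6 (15 members) led with 16.9% of Trav counts, followed by Trav14 (13.6%), Trav7 (12.9%), Trav9 (11.0%) and Trav4 (9.93%). The families Trav18, Trav22 and Trav23 were each under 0.05% in all but 1 library, the exception being Trav23, the most J-proximal of all members, with 27 counts (0.0647%) in replicate 3 with WT Tconv and 0 counts elsewhere.

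The spread between libraries was far larger than counting error. Over the 56 copy-summed segments with a mean of at least 10 counts, the variance of the share within groups was a median of 45.4 times the binomial variance, and the within-group coefficient of variation was a median of 29.2%. For 103 single members it was 33.5%, and for shares summed per family 17.8%. For 7021 other genes of the table, between the 10th and the 90th percentile of the members' mean count, it was 19.6%. The value of the other genes was taken on counts over the library total, not over Trav counts, so the denominators differ. The biological coefficient of variation estimated by edgeR was a median of 0.336 over 94 tested members and 0.208 over all genes tested. The rank order of segments was nonetheless alike in all libraries, with Spearman's rho between 0.841 and 0.935 over the 15 pairs of libraries. These values are across 64 segments, which share a library, and are given as a description. The Bray-Curtis distance between 2 libraries, which is 0 for identical and 1 for disjoint usage, had a mean of 0.160 within groups and 0.159 between groups, and ranged from 0.132 to 0.187.

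Among segments of mean share of at least 0.5%, 5 had the highest ratio of their highest library to the median of the others. Trav7-2 took 4.97% of Trav counts in replicate 1 with WT Tconv, 1.49% and 1.68% in replicates 2 and 3 with HP1α KO Tconv, and had 0 counts in the remaining 3 libraries, which allows at most 0.00717%, 0.00719% and 0.00775%. Trav13-2, described further with its copy, reached 1.21% and 1.44% in replicates 2 and 3 with HP1α KO Tconv. Trav6-2 took 2.10% and 1.61% in the same replicates and 0.441% to 0.875% in the other 4 libraries. Trav17 took 1.97% in replicate 3 with WT Tconv and 0.543% to 1.34% elsewhere. Trav6-1 took 1.35% in replicate 1 with HP1α KO Tconv and 0.228% to 0.700% elsewhere. These segments peaked in different libraries, and all 5 had groups that overlapped.

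The copies in the locus call for care, because reads from near-identical genes are divided between them by a model. Of the 111 members, 80 belong to 33 sets of 2 or 3 copies. In 50 pairs of copies with V exons of equal length, the median difference was 6 bases and 7 pairs were identical. To show what distinguishes copies, the V exons of Trav13-2 and Trav13n-2, which differ at 10 bases, are given whole, with the differing bases in capitals (plus strand, GRCm39).
Trav13-2, chr14:53872578-53872856: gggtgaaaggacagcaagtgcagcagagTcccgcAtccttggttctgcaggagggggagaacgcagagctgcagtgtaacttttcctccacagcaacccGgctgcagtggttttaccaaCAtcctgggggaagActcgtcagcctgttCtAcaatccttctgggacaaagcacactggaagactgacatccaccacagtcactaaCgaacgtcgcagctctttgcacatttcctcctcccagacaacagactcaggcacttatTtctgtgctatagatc
Trav13n-2, chr14:53491496-53491774: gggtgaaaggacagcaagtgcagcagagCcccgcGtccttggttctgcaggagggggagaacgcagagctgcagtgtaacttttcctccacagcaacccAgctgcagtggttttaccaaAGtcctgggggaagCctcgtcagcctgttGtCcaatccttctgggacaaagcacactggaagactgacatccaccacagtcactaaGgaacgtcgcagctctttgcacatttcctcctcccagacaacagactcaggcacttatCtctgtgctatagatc

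Many members were abundant in some libraries and at 0 in others. Of 100 members with at least 50 counts in some library, 16 had 0 counts in another. The share was 16% among members against 1.51% among all genes that reach 50 counts, 242 of 15995. Once copies were summed, 3 of 55 segments (5.45%) remained, namely Trav7-2, Trav15-1 and Trav15-2, and 0 of 19 families did. Trav15-1 and Trav15-2 hold 1 member each, so no copy was summed for them. Trav15-1-dv6-1 and Trav15-2-dv6-2, kept apart by the -dv suffix, had 59 to 158 and 26 to 259 counts over the libraries. Summing without that suffix therefore leaves neither Trav15-1 nor Trav15-2 at 0 counts. Of the 16, 7 have a copy of identical exonic sequence that also has counts in the table, and for 4 more (Trav4n-3, Trav12n-2, Trav13n-2 and Trav15n-2) the identical copy has no row in the table.

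Identical copies can be read only as a sum. Trav14d-2 and Trav14n-2 have the same exonic sequence; Trav14d-2 had 862 counts in replicate 2 with WT Tconv and 0 in the other 5 libraries, and the sum with Trav14n-2 was 653, 934 and 1460 counts with WT Tconv and 546, 785 and 689 with HP1α KO Tconv. Trav9d-3 had 150 counts in that same library alone, whereas its sum with Trav9n-3 was 350 to 558 counts in all 6 libraries. The coefficient of variation of the share over 6 libraries was 245% for Trav9d-3, 19.3% for Trav9n-3 and 15.9% for their sum. For Trav6-6 and Trav6d-6 it was 38.0% and 101%, and 24.8% for the sum. Trav7d-5 and Trav7n-5 remained uneven even as a sum, with 0 counts in replicate 1 with HP1α KO Tconv and 159 to 202 counts in the others.

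**Figure D2:**
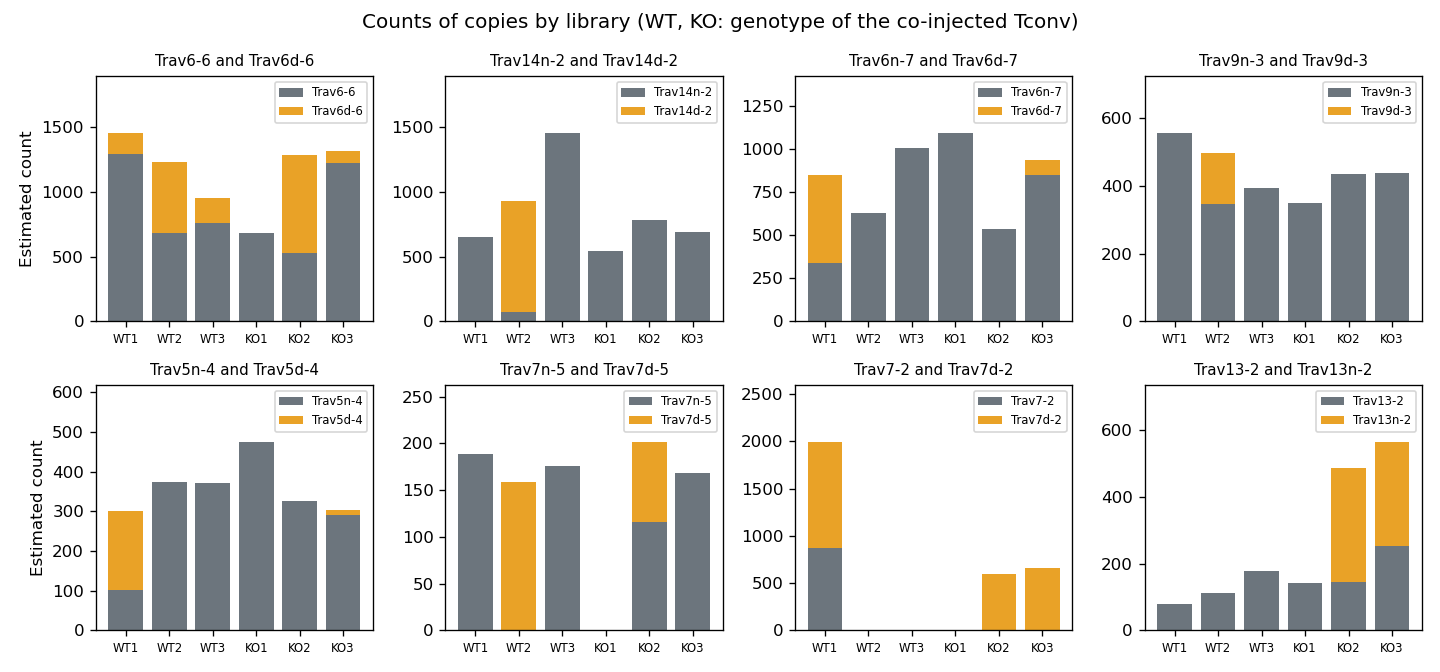
Estimated counts (y axis) per library (x axis; WT and KO give the genotype of the Tconv, with the replicate number) for 8 pairs of copies, stacked. The first 6 pairs have identical exonic sequence and Trav7-2 is identical to Trav7d-2 over their shared bases, whereas Trav13-2 and Trav13n-2 differ at 10 bases; the sums of Trav7n-5 with Trav7d-5, of Trav7-2 with Trav7d-2 and of Trav13-2 with Trav13n-2 are uneven too.

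Trav7-2 and Trav7d-2 are identical over 336 exonic bases, Trav7d-2 having 1 more base at its end, and can be read only as a sum. Both were at 0 in the same 3 libraries. Trav7-2 had 871 counts in replicate 1 with WT Tconv and 0 elsewhere, and Trav7d-2 had 1127, 0 and 0 counts with WT Tconv and 0, 596 and 659 with HP1α KO Tconv. The nearest segment outside the pair is Trav7-1, which is 89.9% identical to Trav7-2 over the exons, and its share was 0.441% to 0.933% in all 6 libraries. Trav13n-2 had 0 counts in all 3 libraries with WT Tconv and 0, 341 and 312 with HP1α KO Tconv, while Trav13-2 had 78, 113 and 177 with WT Tconv and 143, 145 and 254 with HP1α KO Tconv. Trav13d-2, identical to Trav13n-2, has no row in the table.

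The main comparison asked whether the level of each Trav member in the Treg differed when the Tconv lacked HP1α. Levels were relative to the whole library, not to all Trav counts, so a shift of the total Trav level moves all members together. After TMM scaling that total had a mean of 402 CPM with WT Tconv and 423 CPM with HP1α KO Tconv, and the groups overlapped. Its part in the directions of the members was not tested. In the edgeR quasi-likelihood test over 18321 genes with Benjamini-Hochberg adjustment, 0 of 94 tested Trav members had an adjusted p-value under 0.05, beside 0% of all genes tested. The smallest adjusted p-value of a member was 0.209, and 17 members did not pass the filter on low counts. Of the members, 11 (11.7%) had an unadjusted p-value under 0.05, 9 higher and 2 lower with HP1α KO Tconv, beside 14.5% of all genes. The median log2 fold change of the 94 members was 0.11, with 59 higher and 35 lower, and that of all genes was -0.01. The median absolute log2 fold change was 0.27 for the members and 0.17 for all genes. The groups did not overlap for 7 members (7.45%), all of them higher with HP1α KO Tconv, beside 23% of all genes tested.

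DESeq2, an alternative test, called 6 of 70 members with an adjusted p-value (8.57%), beside 4.35% of all genes with one. With HP1α KO Tconv, 5 were higher (Trav13-1, Trav6-3, Trav14-3, Trav7-3 and Trav16n; 7.14%, beside 1.31% of all genes) and Trav8d-2 was lower. When a library was left out, DESeq2 called 2 to 6 members, and each of the 6 members kept its call in 2 or 3 of these 6 fits. Without replicate 2 with HP1α KO Tconv it called 6 of 72 members (8.33%), beside 11.3% of all genes, and without replicate 3 of that group 2 of 71 (2.82%), beside 2.53%. Without replicate 1 of that group it called 5 of 80 (6.25%), beside 5.02%. Without replicates 1, 2 and 3 with WT Tconv it called 4 of 84 (4.76%), 3 of 75 (4%) and 3 of 85 (3.53%), beside 2.42%, 2.23% and 1.35% of all genes. The share of members was thus above that of all genes in 5 of the 6 fits and below it in 1. These 6 members had means of 260.5 to 957 counts per library.

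Trav13-1 had 633, 527 and 615 counts with WT Tconv and 891, 779 and 716 with HP1α KO Tconv. Its groups did not overlap, at 5.76 ± 0.718 CPM against 8.57 ± 1.08 CPM after TMM scaling (log2 fold change 0.57, SE 0.14). The adjusted p-value was 0.209 in edgeR and 0.0196 in DESeq2. Its copies Trav13d-1 and Trav13n-1 differ from it at 11 and 12 bases of the V exon, and a stretch of 120 bases with 8 of the differing bases shows where reads can be told apart.
Trav13-1, chr14:53782829-53782948: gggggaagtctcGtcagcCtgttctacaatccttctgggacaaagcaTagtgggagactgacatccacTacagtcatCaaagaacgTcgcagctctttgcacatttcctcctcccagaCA
Trav13d-1, chr14:53089170-53089289: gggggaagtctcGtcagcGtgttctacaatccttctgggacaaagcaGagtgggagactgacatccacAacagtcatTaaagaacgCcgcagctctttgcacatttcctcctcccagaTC
Trav13n-1, chr14:53400214-53400333: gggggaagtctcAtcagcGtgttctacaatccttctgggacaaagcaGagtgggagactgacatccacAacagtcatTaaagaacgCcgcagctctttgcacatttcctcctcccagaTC
Trav13d-1 had 90, 63 and 88 counts with WT Tconv and 89, 89 and 121 with HP1α KO Tconv, and its groups overlapped in CPM. Trav13n-1 had 241, 249 and 302 counts with WT Tconv and 298, 271 and 355 with HP1α KO Tconv, and its CPM did not overlap between the groups (log2 fold change 0.38, SE 0.18, edgeR adjusted p = 0.379). As a sum of the 3 copies, Trav13-1 took 2.40%, 2.01% and 2.41% of Trav counts with WT Tconv and 3.30%, 2.85% and 3.04% with HP1α KO Tconv. Of the 56 segments with a mean of at least 10 counts, it was the 1 whose share did not overlap between the groups. Beside it, 23% of all genes tested did not overlap on the TMM CPM scale. The adjusted p-value of the sum was 0.208 in edgeR and 0.0147 in DESeq2.

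Trav6-3 had 325, 573 and 356 counts with WT Tconv and 611, 1045 and 705 with HP1α KO Tconv (log2 fold change 1.03, SE 0.29, adjusted p = 0.229 in edgeR and 0.00469 in DESeq2). Its V exon differs from that of Trav6d-3 at a single base, 2 bases before its end and the last one of the stretch shown, so that the division of reads between them is uncertain.
Trav6-3, chr14:53667773-53667832: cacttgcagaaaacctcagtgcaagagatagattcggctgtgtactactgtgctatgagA
Trav6d-3, chr14:52964315-52964374: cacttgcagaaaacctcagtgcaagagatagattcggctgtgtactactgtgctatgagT
Trav6d-3 had 106, 873 and 174 counts with WT Tconv and 160, 222 and 190 with HP1α KO Tconv. Their sum took 1.07%, 3.46% and 1.27% with WT Tconv and 1.99%, 3.17% and 2.28% with HP1α KO Tconv, so the groups overlapped once copies were summed.

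Trav14-3 had 328, 459 and 724 counts with WT Tconv and 703, 689 and 767 with HP1α KO Tconv (log2 fold change 0.70, SE 0.22, adjusted p = 0.231 in edgeR and 0.0330 in DESeq2). With its copy Trav14n-3, which differs at 6 bases, the shares were 4.43%, 3.84% and 3.84% against 4.18%, 3.80% and 5.65%, and overlapped. Trav7-3 had 434, 300 and 390 counts with WT Tconv and 920, 743 and 394 with HP1α KO Tconv. Its replicate 3 with HP1α KO Tconv lay within the range of the other group (log2 fold change 1.01, SE 0.31, adjusted p = 0.241 in edgeR and 0.0101 in DESeq2). Its V exon differs from that of Trav7d-3 at 2 bases.

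Trav16n had 620, 924 and 643 counts with WT Tconv and 1127, 984 and 1444 with HP1α KO Tconv (log2 fold change 0.84, SE 0.26, adjusted p = 0.246 in edgeR and 0.0103 in DESeq2). Its copy Trav16, which differs at 4 bases of the V exon, had 369, 564 and 298 against 504, 366 and 345 counts. A stretch with 3 of these differences is shown.
Trav16, chr14:53980993-53981112: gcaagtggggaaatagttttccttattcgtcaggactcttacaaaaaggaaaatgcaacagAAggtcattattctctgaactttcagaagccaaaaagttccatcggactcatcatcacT
Trav16n, chr14:53588909-53589028: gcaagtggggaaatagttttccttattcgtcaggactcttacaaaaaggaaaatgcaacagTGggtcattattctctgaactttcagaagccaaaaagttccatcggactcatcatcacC
Trav9n-1, annotated as a pseudogene, completed the 6 members of lowest unadjusted p-value among those higher with HP1α KO Tconv. It had 37, 46 and 38 counts with WT Tconv and 73, 81 and 55 with HP1α KO Tconv (log2 fold change 0.92, SE 0.28, edgeR adjusted p = 0.232).

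In the other direction, Trav8d-2 had 202, 419 and 449 counts with WT Tconv and 207, 140 and 146 with HP1α KO Tconv. The groups overlapped through replicate 1 of each (log2 fold change -0.95, SE 0.30, adjusted p = 0.241 in edgeR and 0.0390 in DESeq2). Its copies Trav8-2 and Trav8n-2 differ from it at 16 and 24 bases of the V exon. As a sum of the 3 copies, the shares were 1.59%, 1.92% and 1.88% with WT Tconv and 1.71%, 1.43% and 1.19% with HP1α KO Tconv and overlapped (log2 fold change -0.25, SE 0.16, adjusted p = 0.527 in edgeR and 0.471 in DESeq2). Trav13n-4, Trav12-1, Trav9-2, Trav6-7-dv9 and Trav7-4 followed, with log2 fold changes of -0.63, -0.56, -0.42, -0.31 and -0.17 and edgeR adjusted p-values from 0.310 to 0.490. DESeq2 gave an adjusted p-value over 0.05 to each of these 5.

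**Figure D3:**
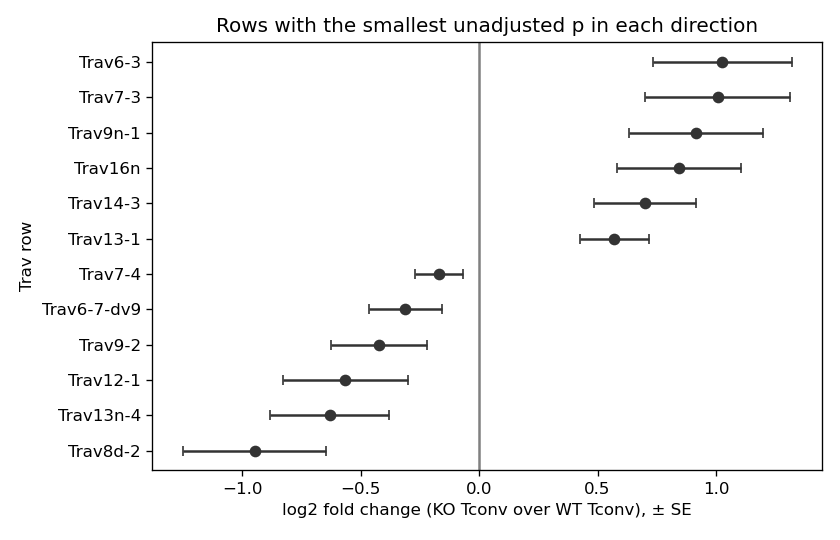
Log2 fold change, HP1α KO over WT Tconv groups (x axis, ± SE of the edgeR fit) for 12 members (y axis), the 6 of lowest unadjusted p-value among those higher and the 6 among those lower with HP1α KO Tconv. None of them has an edgeR adjusted p-value under 0.05, the smallest being 0.209 for Trav13-1.

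When copies were summed before the fit, edgeR called 0 of 55 tested segments, with 4 at an unadjusted p-value under 0.05 (7.27%), beside 14.5% of all genes. DESeq2 called 3 of 46 (6.52%), beside 4.26% of all genes, and these were Trav13-1, Trav7-3 and Trav13-2, all higher with HP1α KO Tconv (1.28% of all genes were called in that direction). Trav13-2 had 78, 113 and 177 counts as a sum with WT Tconv and 143, 486 and 566 with HP1α KO Tconv, so that replicate 1 of the latter group lay within the range of the former (log2 fold change 1.88, SE 0.55, adjusted p = 0.242 in edgeR and 0.000671 in DESeq2). Trav13n-2 alone did not reach the filter with all 6 libraries, and it was the single member that edgeR called when a library was left out. The call came without replicate 1 with HP1α KO Tconv (adjusted p = 0.0428), beside 2 of 18967 genes called. That replicate was the library of its group with 0 counts of Trav13n-2, which then passed the filter through replicates 2 and 3. No conclusion is drawn from this call. With all 6 libraries and no filter beyond 1 count, its edgeR adjusted p-value was 0.641. Per family, edgeR called 0 of 20, and 1, Trav13, had an unadjusted p-value under 0.05, beside 14.6% of all genes. The shares of 3 of the 20 families did not overlap between the groups, beside 23% of all genes tested on the TMM CPM scale. Trav13 took 3.79%, 3.58% and 4.96% of Trav counts with WT Tconv and 5.17%, 5.14% and 6.00% with HP1α KO Tconv (log2 fold change 0.50, SE 0.12, edgeR adjusted p = 0.207). The Trav9 and Trav8 families did not overlap in the opposite direction, at 11.7 ± 0.900% against 10.4 ± 0.202% (SD, n = 3) and 4.23 ± 0.223% against 3.29 ± 0.482%, for which edgeR gave adjusted p-values of 0.700 and 0.421.

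The effective number of segments, the exponential of the Shannon entropy of the shares, was 38.3, 37.6 and 38.7 with WT Tconv and 39.8, 40.5 and 40.0 with HP1α KO Tconv. The groups did not overlap, and the difference of the means was 1.95 segments, with SDs of 0.555 and 0.360 (n = 3). The share of the 5 most used segments, taken in each library as its own 5, was 24.4%, 25.3% and 26.1% with WT Tconv and 23.0%, 21.6% and 23.5% with HP1α KO Tconv. This was a difference of -2.60 percentage points without overlap. It is not the share of a fixed list. For Trav7-4, Trav14-3, Trav14-2, Trav4-4-dv10 and Trav9-1, the 5 of highest mean share, the groups overlapped in each and in their summed share. With 3 libraries against 3, the smallest two-sided exact permutation p-value is 0.1, so no test was made. Whether the groups overlapped depended on how segments were counted. The effective number stayed apart with copies summed without the -dv suffix (32.6 to 34.0 against 34.3 to 35.2) and with counts per exonic length (37.9 to 39.1 against 40.1 to 40.8). With copies not summed, it was 63.3 to 67.0 with WT Tconv and 66.6 to 67.9 with HP1α KO Tconv (difference 2.23), and over members with at least 10 counts in every library it was 36.5 to 38.2 and 37.9 to 38.5, so that the groups overlapped in both. The share of the 5 most used stayed apart over members with at least 10 counts in every library (25.7% to 26.9% against 23.7% to 24.9%) and per exonic length (24.5% to 25.1% against 21.3% to 23.8%). It overlapped with copies not summed, at 17.6% to 19.5% against 16.3% to 18.5%, and with copies summed without the -dv suffix, at 26.4% to 30.7% against 27.4% to 28.6%. Per family, the effective number differed by 0.11, and the share of the 5 most used by -0.41 percentage points, both under the spread between replicates.

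**Figure D4:**
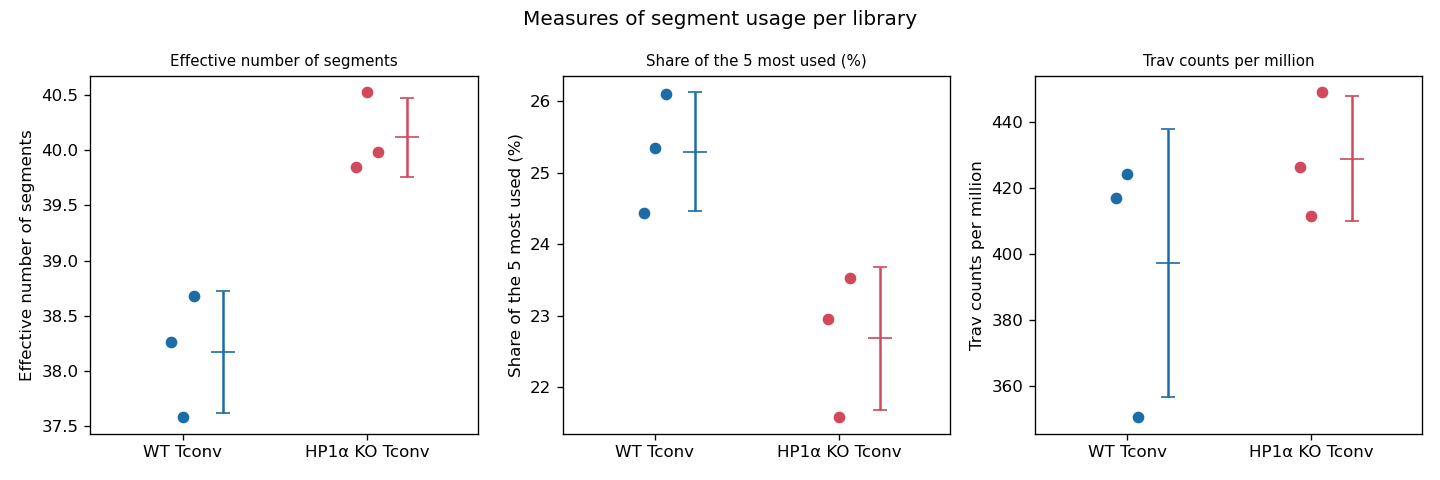
Effective number of segments, share of the 5 most used segments of each library (%) and total Trav level (CPM) on the y axes, by group (x axis). Points are libraries and bars give the mean ± SD of 3; the groups are apart in the first 2 panels and overlap for the total Trav level. The y axes do not start at 0.

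The locus lies on the plus strand of chromosome 14, upstream of the Traj segments and Trac. Of the members ordered by distance to the first Traj segment, the nearest 37 members (177 to 638 kb) held 36.6 ± 3.82% of Trav counts with WT Tconv and 34.4 ± 0.760% with HP1α KO Tconv (SD, n = 3). The middle 37 members (649 to 1032 kb) held 44.2 ± 1.81% and 46.0 ± 1.39%, and the farthest 37 (1050 to 1726 kb) held 19.2 ± 2.51% and 19.6 ± 1.32%. In each of the 6 libraries the farthest 37 held the least as the rows were listed. However, 9 V genes with d in the annotation have no row, and each is identical in exonic sequence to a row with n in the middle set. Those 9 rows held 7.07% to 12.3% of Trav counts over the libraries, and their counts cannot be told apart from those of the copies without a row. If all of them were counted at the d copies, an alternative chosen after seeing the data, the middle set would hold 34.8 ± 2.16% and 34.9 ± 2.78% and the farthest set 28.7 ± 4.87% and 30.7 ± 3.03%. The farthest set would then be the lowest in 4 of 6 libraries, so the order of the 3 sets rests on which copies have a row. The share of the nearest 37 was 34.5%, 34.2% and 41.0% with WT Tconv and 33.5%, 34.6% and 35.0% with HP1α KO Tconv. Replicate 3 with WT Tconv was the highest, and the difference of -2.18 percentage points was 0.02 without it. With the nearest 56 members in place of 37, the difference over all libraries was -0.80 percentage points. The 8 members nearest to the Traj segments were little used, at 2.38 ± 0.864% and 2.87 ± 0.222% in all, most of it from Trav17 (mean share 1.05%) and Trav21-dv12 (1.02%). Trav1, the farthest member, is used by mucosal-associated invariant T cells with a fixed J segment, and had a mean share of 0.994% (0.495% to 1.88% over the libraries).

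**Figure D5:**
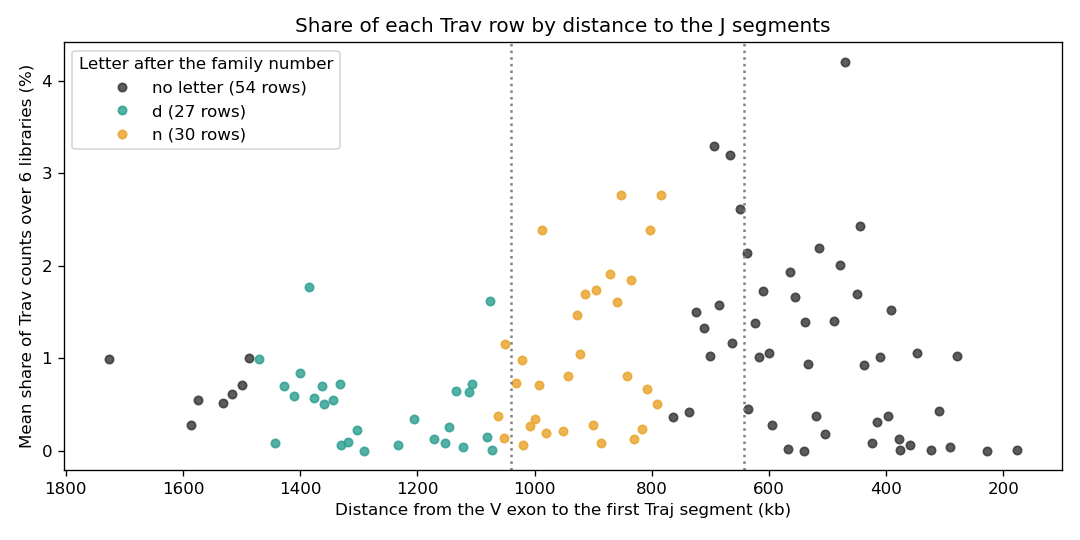
Mean share of Trav counts over 6 libraries (%, y axis) for each of the 111 members by distance from its V exon to the first Traj segment (kb, x axis, nearest at the right). Colours give the letter after the family number and dotted lines divide the members into 3 sets of 37; the members with d, most of the farthest set, lie mostly below 1%.

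The letters follow position, since members with d lie 1072.5 to 1470.5 kb and those with n 784 to 1063 kb from the Traj segments. The 27 members with d held 13.6 ± 2.92% with WT Tconv and 12.6 ± 1.70% with HP1α KO Tconv, and the 30 with n held 28.9 ± 0.401% and 31.7 ± 1.31%. With the 9 rows named above counted as d, d would hold 23.0 ± 5.27% and 23.7 ± 3.42% and n 19.4 ± 2.64% and 20.6 ± 2.95%, with d above n in 4 of 6 libraries against 0 of 6 as listed. The order of the letters therefore rests on which copies have a row, and the groups overlapped for n in that count. As listed, the groups did not overlap for the members with n, at 29.2%, 28.4% and 28.9% with WT Tconv and 32.0%, 30.2% and 32.8% with HP1α KO Tconv. The share of d and n together was 43.1%, 44.8% and 39.5% with WT Tconv and 44.7%, 44.5% and 43.7% with HP1α KO Tconv. The groups overlapped for this sum, and the difference of 1.84 percentage points was 0.34 without replicate 3 with WT Tconv. The division between letters rests on the reads that tell copies apart. The 9 members with dv in the name, which can also be joined to delta chain segments, held 11.3 ± 1.46% and 10.4 ± 0.642%.

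Trav11 encodes the variable part of the invariant chain of natural killer T cells. Trav11 and Trav11d together took 0.326%, 0.648% and 0.611% of Trav counts with WT Tconv and 0.540%, 0.560% and 0.403% with HP1α KO Tconv. The groups overlapped. Zbtb16, the defining factor of these cells, was at 0.0411 to 0.445 CPM and Klrb1c, a receptor on them, at 2.47 to 5.33 CPM over the libraries. The summed level of Zbtb16, Klrb1c and Trav11 did not overlap between the groups, at 5.44 to 6.61 CPM with WT Tconv and 4.34 to 5.25 CPM with HP1α KO Tconv. Each of the 3 genes alone overlapped between the groups, and 23% of all genes tested did not overlap.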

How the data were processed

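Total RNA of sorted Treg was sequenced in 3 libraries with WT Tconv and 3 with HP1α KO Tconv, grouped by their labels. The authors used the nf-core RNA-seq pipeline, which trimmed the reads, with STAR for alignment to GRCm39 and an Ensembl annotation, and Salmon for quantification. What they deposited is a table of estimated counts, already whole numbers and without normalization. Reads that fit several genes are divided by a model, which can move counts between copies of a segment. No column of per-sample values was left unused. Genes without a symbol held 0.0664% of counts and were kept.

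Members and lists were chosen with earlier results of these data known. Exons, biotypes and sequences were read from GRCm39 and a GENCODE annotation newer than the authors'. Shares were counts over all Trav counts of a library. All genes were tested with edgeR 4.0.16 in R 4.3.3 (glmQLFit with robust estimation, glmQLFTest, TMM, filterByExpr, group as the term), and p-values were Benjamini-Hochberg adjusted over all genes. SE was computed as |log2 fold change| / √F. Alternatives were DESeq2 1.42.0 with its default filtering, limma-voom (limma 3.58.1), RLE, upper quartile and total-count scaling, 2 other count filters, the replicate block, copies summed in 3 ways, counts per exonic length, and each library left out. The fits were tested on simulated data in which all genes had the same biological coefficient of variation. It was lower than the median of the Trav members (0.336). The simulation therefore does not show how well changes of the members would be found. CPM of single members used TMM-scaled totals, and CPM of marker lists and of the total Trav level used plain totals. Named were the 10 most used segments and their members, the members (up to 6 higher and 6 lower) of smallest unadjusted p among those with a mean of at least 10 counts, members called by edgeR or DESeq2, the 5 segments of mean share of at least 0.5% with the highest single-library excess, Trav1, Trav11, Trav11d, Trav13-2, Trav13d-2 and Trav13n-2, and the receptor partner genes, of which Ptcra has no row in the table. Others were chosen after their values were seen.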

Additional observations from a re-analysis of the deposited data

How the results depend on the processing

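The edgeR count of 0 Trav members was the same with limma-voom, the other scalings and filters, the replicate block and copies summed in 3 ways, and was 0 to 1 when a library was left out, the 1 being Trav13n-2. The library left out was then the 1 with HP1α KO Tconv that had 0 counts of Trav13n-2, so no conclusion is drawn from that call. With all 6 libraries and no filter beyond 1 count, its edgeR adjusted p-value was 0.641. DESeq2 gave 6 members and, as alternatives chosen after seeing the data, 3 with copies summed, 4, 3 and 3 without replicates 1, 2 and 3 with WT Tconv, and 5, 6 and 2 without those with HP1α KO Tconv. The share of members was above that of all genes in 5 of the 6 fits with a library left out and below it, at 8.33% beside 11.3%, without replicate 2 with HP1α KO Tconv. Over all genes, the count of 0 became 1 with upper quartile scaling, 38 without a filter beyond 1 count and 526 with DESeq2; with a library left out it was 0 to 2 in edgeR and, in the same order as above, 328, 279, 181, 681, 1413 and 318 in DESeq2. The replicate block gave 1 gene and 0 Trav members. The labels do not say whether the replicate numbers pair the samples. Same-numbered libraries deviated together with correlations of -0.07, 0.17 and 0.12 over all genes tested, and differently numbered ones with -0.20 to 0.15. Not every library correlated best with its own number. So few libraries cannot decide whether the samples are paired.

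The difference in the effective number of segments (1.95) was 0.11 per family and 0.93 over members with at least 10 counts in every library, against 2.23 with copies not summed, 1.54 without the -dv suffix, 1.96 per exonic length, and 1.65 to 2.20 with a library left out. That in the share of each library's own 5 most used segments (-2.60 percentage points) was -1.63 with copies not summed, -0.75 with copies summed without the -dv suffix and -0.41 per family. It was -2.16 over members with at least 10 counts in every library, -2.28 per exonic length, and -3.03 to -2.05 with a library left out. The cause was not tested. With a library left out, the difference was 8.3 to 45.1 CPM for the total Trav level, -3.38 to 0.02 percentage points for the nearest 37 members, -0.13 to 0.03 for Trav11 with Trav11d, 0.34 to 2.99 for d and n, and -0.0071 to 0.0092 for the distance between less that within groups. Over all 39 named members that could be fitted, the direction was reversed in 82 of 778 fits, in 18 members. Depth limits shares below the floor of 3 counts.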
